A study of Homo sapiens with 8 samples.

Results

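Axon guidance ligands and receptors are the secreted or membrane-bound cues, and their receptors, that steer growing nerve fibers and migrating cells. The 66 genes described here are the autosomal protein-coding genes of GENCODE release 44 in GRCh37 coordinates whose symbol belongs to the semaphorin (SEMA), plexin (PLXN), neuropilin (NRP), SLIT, ROBO, netrin (NTN), UNC5 and *DCC*, EPH receptor (EPHA, EPHB) or ephrin (EFNA, EFNB) families, of 19229 autosomal protein-coding genes in all. They were chosen by symbol alone, and 34 are ligands and 32 are receptors. DNA methylation was mapped in 8 neuroblastoma (NB) cell lines, which are established cultures of tumor cells, by MBD-seq. Sheared genomic DNA was captured with the methyl-CpG-binding domain of MBD2 and sequenced, and the authors called peaks with MACS in each line. *MYCN*, the oncogene amplified in aggressive NB, is amplified (MNA) in N206, IMR-32, CHP-902R and LAN-2 and present as a single copy in SK-N-AS, SJNB-1, CLB-GA and SH-SY5Y. The labels name no treatment. Each line gave 1 library, and the 4 lines of a group are its replicates, each standing for 1 tumor only.

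Semaphorins act mainly as repellents through plexins, with neuropilins as co-receptors of the secreted class 3 members. SLITs repel through ROBO receptors, netrins attract through *DCC* or repel through UNC5 receptors, and ephrins on one cell signal to EPH receptor tyrosine kinases on its neighbor. NB arises from the sympathetic lineage of the neural crest, whose migrating cells and outgrowing neurites read several of these cues.

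The peak lists held between 88496 and 112412 peaks in the MNA lines and between 70816 and 86079 in the single copy lines. Each peak has a score of the authors that rises as its p-value falls, used here as a score percentile, the percentage of the peaks of the same line with a lower score. Depth per line is unknown here because read counts are not part of the lists, and a missing peak means that none was called. As a check of the labels, peaks covered 8.68% to 19.8% of the region within 1 Mb on either side of *MYCN* in the MNA lines and 1.87% to 4.76% in the single copy lines. A gene was said to have a promoter peak when a peak overlapped the stretch between 1500 bp before and 1000 bp after any of its annotated transcription start sites (TSS). The canonical TSS is that of the transcript marked canonical in the annotation, and the gene body is the rest of the gene outside all windows.

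MBD capture needs methylated CpG, so the sequences of the main peaks are shown first, each 200 bp in the direction of transcription with CpG in capitals. Those of *DCC* and *EFNB2* lie directly upstream of the canonical TSS and had no peak in any line, at chr18:49866367-49866566 (plus strand) with 8 CpG and at chr13:107188011-107188210 (minus strand) with 34 CpG. Both are shown as promoters without a peak, one with few and one with many CpG.
*DCC* upstream: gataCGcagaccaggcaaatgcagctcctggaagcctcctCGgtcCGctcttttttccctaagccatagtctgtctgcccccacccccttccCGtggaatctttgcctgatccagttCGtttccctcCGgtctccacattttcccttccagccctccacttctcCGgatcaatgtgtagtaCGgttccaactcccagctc
*EFNB2* upstream: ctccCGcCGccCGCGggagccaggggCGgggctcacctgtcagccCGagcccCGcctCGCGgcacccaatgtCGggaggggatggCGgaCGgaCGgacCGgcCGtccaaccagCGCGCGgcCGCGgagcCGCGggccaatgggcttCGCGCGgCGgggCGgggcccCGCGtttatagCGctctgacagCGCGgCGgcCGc

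A second set comes from regions with a peak in all 8 lines, in *EFNB2* (chr13:107145409-107145608, minus strand, exon 5), *NTN3* (chr16:2522705-2522904, plus strand) and *SLIT3* (chr5:168717499-168717698, minus strand, intron). Every base of the stretch was inside a peak in 7 lines for *EFNB2* and in 8 lines for *NTN3* and *SLIT3*. The *EFNB2* and *NTN3* stretches hold 19 CpG each and the *SLIT3* stretch 10. The *SLIT3* stretch repeats itself, with 70.7% of its bases equal to the base 12 bp downstream. In the other sequences, apart from that of *PLXNA4*, this share was at most 43.4% at the best of the offsets from 2 to 60 bp.
*EFNB2* exon 5: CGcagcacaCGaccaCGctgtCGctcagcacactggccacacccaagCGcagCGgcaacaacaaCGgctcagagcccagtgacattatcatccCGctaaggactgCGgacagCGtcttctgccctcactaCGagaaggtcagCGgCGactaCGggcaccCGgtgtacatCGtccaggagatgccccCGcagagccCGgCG
*NTN3*: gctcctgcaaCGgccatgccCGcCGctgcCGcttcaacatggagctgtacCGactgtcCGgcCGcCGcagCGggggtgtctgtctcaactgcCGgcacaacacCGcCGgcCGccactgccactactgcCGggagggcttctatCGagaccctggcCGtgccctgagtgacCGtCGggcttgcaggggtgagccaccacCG
*SLIT3* intron: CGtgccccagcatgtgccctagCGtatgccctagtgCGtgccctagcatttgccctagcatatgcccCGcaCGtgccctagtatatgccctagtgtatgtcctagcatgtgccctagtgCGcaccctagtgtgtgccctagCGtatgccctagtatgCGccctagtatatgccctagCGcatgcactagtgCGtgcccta

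The remaining sequences belong to peaks found in some of the lines. They are the *SLIT1* stretch upstream of the canonical TSS (chr10:98946770-98946969, minus strand, inside a peak in 6 lines), *NTN1* exon 2 (chr17:8926430-8926629, plus strand, 4 lines), a *PLXNA4* region that reaches a promoter window (chr7:132331554-132331753, minus strand, outside the window itself, 7 lines), a *SLIT3* intron stretch with a peak in the 4 MNA lines (chr5:168530763-168530962, minus strand) and an *EPHB6* stretch with a peak in 3 MNA lines (chr7:142566495-142566694, plus strand). *NTN1* is the most CpG-dense of these, with 33 CpG, and *PLXNA4* the least, with 4. In the *PLXNA4* stretch, 56.4% of the bases equal the base 44 bp downstream.
*SLIT1* upstream: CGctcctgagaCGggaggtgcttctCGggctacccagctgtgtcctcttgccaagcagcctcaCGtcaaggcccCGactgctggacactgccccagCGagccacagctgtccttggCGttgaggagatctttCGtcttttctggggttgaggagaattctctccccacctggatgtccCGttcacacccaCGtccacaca
*NTN1* exon 2: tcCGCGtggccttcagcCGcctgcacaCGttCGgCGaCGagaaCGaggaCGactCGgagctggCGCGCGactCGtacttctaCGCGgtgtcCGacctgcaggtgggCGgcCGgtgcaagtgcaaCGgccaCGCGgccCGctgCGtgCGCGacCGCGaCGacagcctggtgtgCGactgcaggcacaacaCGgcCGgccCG
*PLXNA4* far region: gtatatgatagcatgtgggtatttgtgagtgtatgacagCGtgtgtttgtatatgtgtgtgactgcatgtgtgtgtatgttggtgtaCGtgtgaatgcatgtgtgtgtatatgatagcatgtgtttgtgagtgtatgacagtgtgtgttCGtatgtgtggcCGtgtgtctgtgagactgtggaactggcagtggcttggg
*SLIT3* MNA intron: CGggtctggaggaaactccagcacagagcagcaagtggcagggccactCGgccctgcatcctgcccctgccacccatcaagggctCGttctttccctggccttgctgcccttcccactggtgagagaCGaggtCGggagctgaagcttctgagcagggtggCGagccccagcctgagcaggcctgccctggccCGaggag
*EPHB6* MNA region: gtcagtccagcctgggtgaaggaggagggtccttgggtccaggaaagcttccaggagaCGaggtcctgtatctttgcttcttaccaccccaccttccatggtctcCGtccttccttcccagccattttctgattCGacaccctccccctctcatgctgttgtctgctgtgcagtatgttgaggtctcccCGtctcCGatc

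Promoter peaks were common among the axon guidance genes. Between 26 genes (39.4%) in SJNB-1 and 39 genes (59.1%) in IMR-32 had one. Of the other MNA lines N206 had 32 such genes, CHP-902R 33 and LAN-2 35, and of the single copy lines SK-N-AS had 30, CLB-GA 36 and SH-SY5Y 37. Among all genes the share was 34.4% to 42.5%, and that of the axon guidance genes was the higher one in each of the 8 lines. With only peaks of a score of at least 100, the order turned in LAN-2 (9.09% against 14.3%) and SJNB-1 (6.06% against 7.07%).

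**Figure D1:**
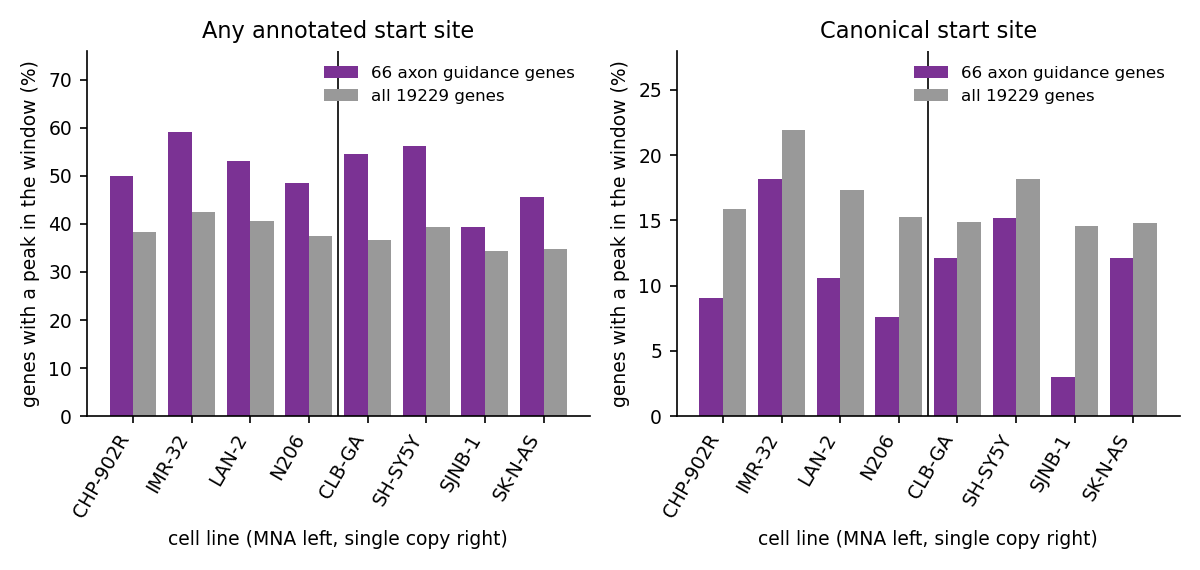
Percentage of genes with a peak in the promoter window of any annotated start site (left) and of the canonical start site (right) in each NB cell line, for the 66 axon guidance genes and for all 19229 genes. The axon guidance genes lie above all genes in the left panel and below them in the right panel in each of the 8 lines.

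Axon guidance genes are long and have many TSS, with a median length of 80.3 kb against 27.6 kb for all genes and a median of 7 against 5 TSS. Over the 528 combinations of a gene and a line, 50.8% had a promoter peak, against 38% for all genes. Among genes with 11 or more TSS the shares were 63.1% and 60%, and among those with 1 to 3 TSS they were 19.6% and 21.5%. A wider gap was seen with 4 to 6 TSS (52.3% against 35.6%) and with 7 to 10 TSS (60.7% against 44.5%).

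Around the canonical TSS alone the picture was the opposite. Between 2 genes (3.03%) in SJNB-1 and 12 genes (18.2%) in IMR-32 had a peak in this window, compared with 14.6% to 21.9% of all genes, and the share of the axon guidance genes was the lower one in each line. The other lines had 5 (N206), 6 (CHP-902R), 7 (LAN-2), 8 (CLB-GA and SK-N-AS) and 10 genes (SH-SY5Y). With only peaks of a score of at least 100, the share was higher than that of all genes in IMR-32 (7.58% against 6.03%) and SH-SY5Y (7.58% against 4.57%). No canonical window peak was called in any line for 42 of the 66 genes (63.6%), against 50.4% of all genes.

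The shares for ligands and receptors lay apart here. A peak in the canonical window was present in 15.4% of the combinations of a ligand and a line and in 6.25% of those of a receptor and a line, whereas any promoter peak was present in 50.4% and 51.2%. No test was made of this difference, since the genes are not replicates. The canonical windows of the axon guidance genes are CpG-rich, with a median of 5.7 CpG per 100 bp against 4.24 for all genes. Within each of 4 equal bins of all genes ordered by CpG density, the share with a canonical window peak was lower for the axon guidance genes. It was 8.33%, 16.1%, 9.78% and 11.6% from the lowest to the highest bin (9, 7, 23 and 27 genes), against 11.7%, 18.5%, 18.7% and 17.6% for all genes. By number of TSS, this share was not lower throughout. With 7 to 10 TSS it was 19.6% against 16.3% for all genes, and with 1 to 3 TSS 14.3% against 17.1%. With 4 to 6 TSS it was 9.38% against 17.3%, and with 11 or more 4.55% against 15.5%.

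The canonical TSS itself lay inside a peak in 3 of the 528 combinations (0.568%), against 3.39% for all genes. These were *SEMA3B*, a secreted semaphorin, and *ROBO3*, of the ROBO family, in IMR-32, and *EPHA1*, an EPH receptor, in LAN-2. Their peaks had score percentiles of 8.78, 35.1 and 80.3. Downstream the profile of the axon guidance genes rose above that of all genes, with the base at 1900 bp inside a peak in 8.52% of the combinations against 4.43%. At 3500 bp downstream, 60 combinations from 21 genes were inside a peak, led by *EPHA10* with 7 lines, *EFNA1* with 6 and *EFNA2* and *EFNA3* with 5 each. With so few genes, single genes shape this profile.

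**Figure D2:**
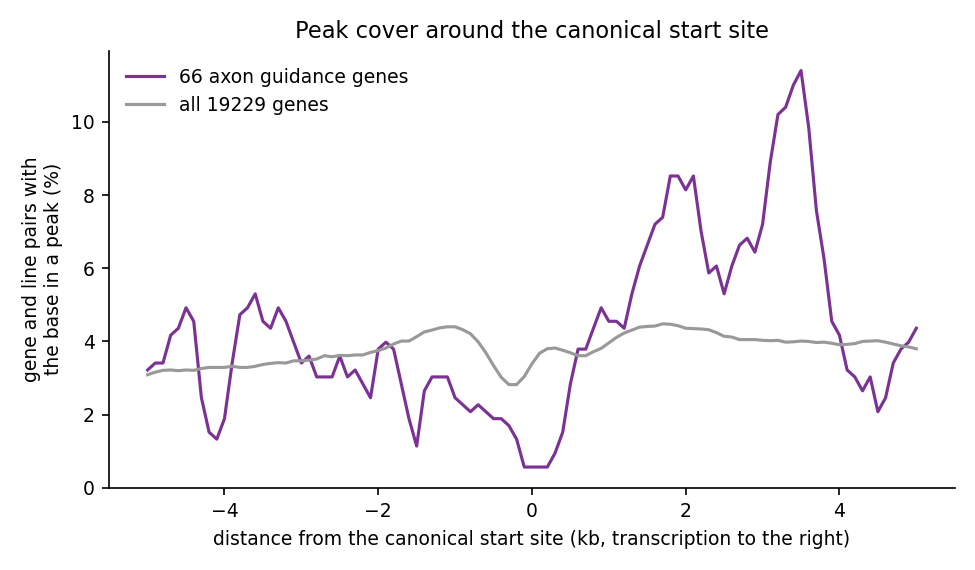
Percentage of gene and line combinations whose base at the given distance (kb) from the canonical start site lies inside a peak, for the 66 axon guidance genes and all 19229 genes. The curve of the axon guidance genes is lowest at the start site, where it stands at 0.568%, and rises above that of all genes from about 1 kb downstream to about 4 kb.

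At least 2 lines shared a promoter peak for 50 genes (75.8%, against 62.4% of all genes), and all 8 lines had one for 11 genes (16.7%, against 6.4%). The 11 genes were *SEMA4D*, *SEMA6C*, *PLXNA2*, *PLXNA4*, *PLXNB1*, *PLXNC1*, *PLXND1*, *NRP1*, *NRP2*, *SLIT1* and *EPHB2*. A further 6 genes had one in 7 lines, namely *SEMA4B*, *SEMA4G*, *SEMA5B*, *NTN3*, *EPHA1* and *EFNA1*. These counts depend on the number of TSS and on weak peaks, since with the canonical TSS alone 15 genes had a peak in at least 2 lines (22.7%, against 31.4% of all genes) and 0 in all 8 (0.988% of all genes). With a score of at least 100 at any TSS the numbers were 14 (21.2%, against 18% of all genes) and 0 (0.203% of all genes). The 8 lines did not always have their peaks at the same place in a gene. Of the 11 genes, 1, *SEMA6C*, had a single merged region with a peak in all 8 lines. The most shared region had a peak in 7 lines in *PLXNA2*, *PLXNA4*, *NRP2* and *SEMA4D*. In *PLXNB1*, *PLXND1*, *SLIT1* and *EPHB2* it had one in 6 lines, in *PLXNC1* in 4 and in *NRP1* in 3.

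**Figure D3:**
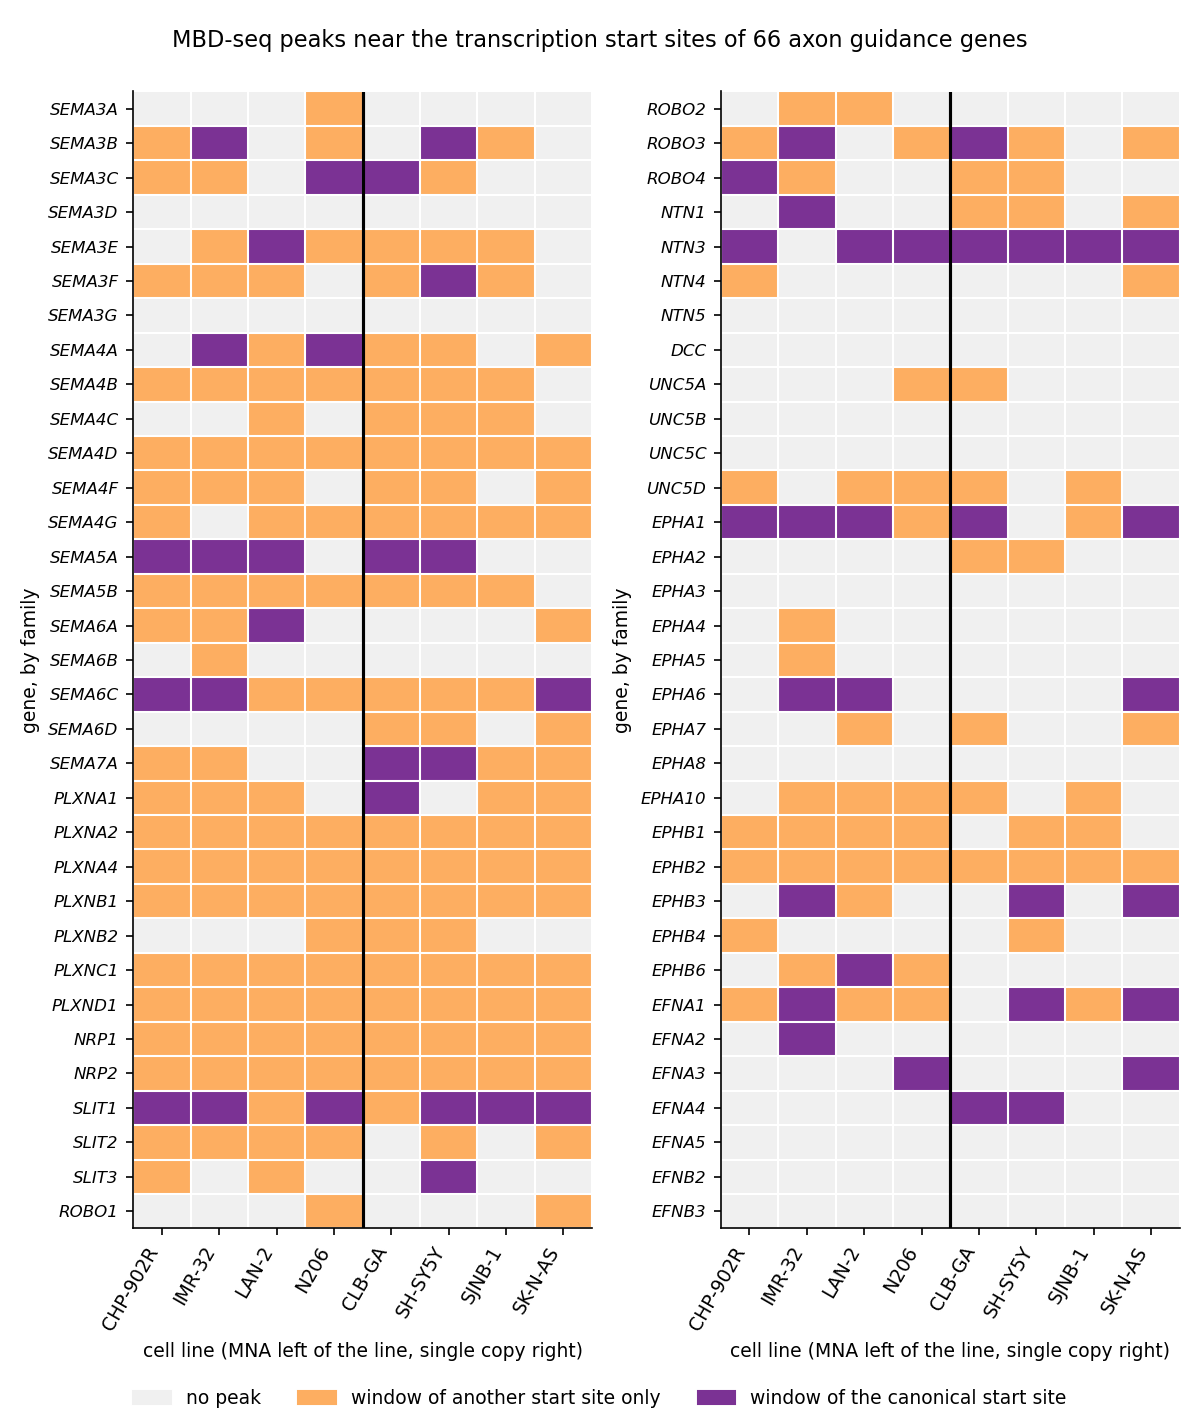
Promoter peaks of the 66 axon guidance genes (rows, ordered by family) in the 4 MNA and 4 *MYCN* single copy lines (columns). Purple marks a peak in the window of the canonical start site, orange a peak only in the window of another start site, and gray no peak. Plexins and neuropilins are nearly all orange, and 11 genes are gray in every line.

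Semaphorins were the largest group of ligands. Of the 7 secreted class 3 semaphorins, 4 had a promoter peak in at least 2 lines, and *SEMA3D* and *SEMA3G* had none in any line. All 13 membrane-bound semaphorins had one in at least 1 line, and 12 in at least 2 lines. *SEMA6C*, which signals through plexins, had a region at its last exon (chr1:151103299-151106632) with a peak in 8 lines, whose score percentile ranged from 7.93 in CHP-902R to 98.8 in CLB-GA. *SEMA5A* was the semaphorin with most lines in the canonical window, 5 lines, through a region 1.25 kb upstream (chr5:9547215-9547668). Its score percentile was 89.8 in IMR-32, 12.8 in CHP-902R, 88.6 in LAN-2, 63.2 in CLB-GA and 97.3 in SH-SY5Y. N206, SJNB-1 and SK-N-AS had no *SEMA5A* promoter peak.

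Other semaphorins carried their promoter peaks far inside the gene. In *SEMA4D*, which binds *PLXNB1*, a region 127 kb downstream of the canonical TSS had a peak in 7 lines, and in *SEMA5B* a region over exons 15 to 20 had one in 7 lines. In *SEMA4G* a region at exon 15 was found in 7 lines with score percentiles of at most 49.3. *SEMA6A* had a peak in all 8 lines over its last exon, 128 kb from the canonical TSS and outside all promoter windows (chr5:115781551-115783945).

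Plexins, the semaphorin receptors, and neuropilins had promoter peaks in nearly every line, but hardly ever at the canonical TSS. Over the 7 plexins, 87.5% of the combinations of a gene and a line had a promoter peak and 1.79% had one in the canonical window, from *PLXNA1* in CLB-GA alone. For *NRP1* and *NRP2* the shares were 100% and 0%. *PLXNA4*, a receptor for class 3 semaphorins, had the strongest promoter peaks of the 66 genes by mean score percentile (94.1). Its score percentile was 97.3 in IMR-32, 99.8 in N206, 99.7 in CHP-902R, 76.2 in LAN-2, 98.9 in SK-N-AS, 88.2 in CLB-GA, 92.9 in SJNB-1 and 99.9 in SH-SY5Y. The values were high in both *MYCN* groups.

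These *PLXNA4* peaks, apart from that of CLB-GA, belong to a region at chr7:132331157-132333114, which lies 70.9 kb upstream of the canonical TSS and within an intron of a longer transcript. In LAN-2 the peak of the highest score in this region (percentile 96.7) lies outside the promoter window. The region is the source of the sequence with 4 CpG shown above, and over its whole length it holds 0.664 CpG per 100 bp. Of its windows of 45 bp, the read length, 96.9% occur once in GRCh37. *PLXNA4* also had 3 regions with a peak in 8 lines in its body, at exon 2 (chr7:132191862-132193625) and in introns 400 kb and 420 kb downstream. *PLXNA1* had such a region at exon 2 (chr3:126706542-126708894), with score percentiles from 67.9 in SK-N-AS to 99.3 in N206.

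*PLXNA2* also ranked high by mean score percentile (78), through a region at exon 2 (chr1:208389693-208391473) found in all lines but LAN-2. *PLXNC1*, the receptor of *SEMA7A*, differed from it. Its promoter peaks fell into 9 separate regions near its 11 TSS, of which the most shared, over exons 8 and 9, had a peak in 4 lines. The highest score percentile of a *PLXNC1* promoter peak was 49.3 in IMR-32, 59.6 in N206, 48.8 in CHP-902R, 97.8 in LAN-2, 80.6 in SK-N-AS, 16 in CLB-GA, 7.36 in SJNB-1 and 67.8 in SH-SY5Y. The lowest values were those of SJNB-1 and CLB-GA. *NRP1*, a co-receptor of class 3 semaphorins, likewise had 6 regions with at most 3 lines each, whereas 1 region of *NRP2* at exon 13 (chr2:206628035-206628912) had a peak in 7 lines.

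Among the SLIT ligands, *SLIT1* had the most widely shared peak upstream of a canonical TSS. The region (chr10:98945880-98947171), centered 0.809 kb upstream of the TSS, had a score percentile of 66.4 in IMR-32, 83.5 in N206, 91.2 in CHP-902R, 75 in SK-N-AS, 89.4 in SJNB-1 and 87.6 in SH-SY5Y. LAN-2 and CLB-GA had no peak there, but each had a peak at another *SLIT1* TSS. *SLIT2* had promoter peaks in 6 lines, all of them at other TSS. *SLIT3* had them in CHP-902R, LAN-2 and SH-SY5Y only.

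The most prominent *SLIT3* signal lay outside the promoter windows. A region centered 10.4 kb downstream of the canonical TSS (chr5:168716805-168718739, intron) had a peak in all 8 lines, with a score percentile of 99.1 in IMR-32, 99.9 in N206, 99.9 in CHP-902R, 99.6 in LAN-2, 99.7 in SK-N-AS, 86.5 in CLB-GA, 99.5 in SJNB-1 and 99.7 in SH-SY5Y. It scored above at least 99.1% of the peaks in 7 lines, and CLB-GA was the lowest. It contains the self-repeating sequence shown above, and 100% of its 45 bp windows occur once in GRCh37. The region holds 2.27 CpG per 100 bp.

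ROBO receptors had fewer shared peaks. *ROBO3* had a promoter peak in 6 lines and *ROBO4*, the ROBO of blood vessels, in 4. *ROBO1* and *ROBO2*, the main neuronal SLIT receptors, had one in 2 lines each, N206 and SK-N-AS for *ROBO1* and IMR-32 and LAN-2 for *ROBO2*, and neither had one at the canonical TSS. Both are very long genes, and their bodies carried 8 to 31 and 24 to 52 peaks per line.

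The netrins differed from gene to gene, with a promoter peak in 40.6% of their combinations of a gene and a line. *NTN3* is a short gene with 1 annotated TSS, and its canonical window had a peak in 7 lines. The score percentile of its region (chr16:2521698-2523354, exons 1 to 4) was 93.2 in IMR-32, 99.5 in N206, 78 in CHP-902R, 67.8 in LAN-2, 94 in SK-N-AS, 94.3 in CLB-GA, 96.9 in SJNB-1 and 98.4 in SH-SY5Y. In CHP-902R the value is that of a peak outside the window, and the peak that overlapped the window had a score percentile of 7.1. IMR-32 was not counted because its peak starts at 2522303, which is 5 bp beyond the window. The region begins at 2521698, 400 bp downstream of the TSS.

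*NTN1*, the best known attractant of DCC-bearing axons, showed a pattern that split the lines. A region over exon 2, centered 1.38 kb downstream of its canonical TSS (chr17:8925297-8927117), had a score percentile of 99.5 in IMR-32, 93.8 in SK-N-AS, 83.3 in CLB-GA and 72.2 in SH-SY5Y, and no peak in CHP-902R, LAN-2, N206 and SJNB-1. With 12.4 CpG per 100 bp it was the densest of the regions described here. The lines with the peak came from both *MYCN* groups. Only in IMR-32 did a peak reach the canonical window. In SK-N-AS, CLB-GA and SH-SY5Y the values given are those of peaks outside the promoter windows. The promoter peaks of these lines, at another TSS, had score percentiles of 7.65, 72.9 and 61.4. *NTN4* had a promoter peak in 2 lines and *NTN5* in none.

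The netrin receptors had the lowest share of promoter peaks of the families, 17.5% of the combinations of a gene and a line, and none in a canonical window. *DCC*, *UNC5B* and *UNC5C* had no promoter peak in any line, *UNC5A* had one in N206 and CLB-GA with score percentiles of 6.24 and 25.5, and *UNC5D* had one in 5 lines at other TSS. These genes are known as dependence receptors, which can trigger cell death in the absence of ligand. *DCC* has 17 annotated TSS, and none of them was near a peak, whereas its body had 5 peaks in SJNB-1 at the lowest and 22 in LAN-2 at the highest. The bodies of *UNC5A*, *UNC5B* and *UNC5C* had peaks in all 8 lines, with 3 to 8, 1 to 11 and 6 to 12 peaks. The mean body cover of all 5 netrin receptors was higher in the MNA lines, but none of the 5 separated the groups. This direction was also that of 57.1% of all genes (10622, with 5603 lower and the rest equal). It was that of 42 of the 66 genes, but of 0 of the 4 ROBO receptors. For *DCC*, mean body cover was 0.58% ± 0.155 in the MNA lines and 0.385% ± 0.164 in the others (SD, n = 4 each). The exact permutation test gave p = 0.143.

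EPH receptors and ephrins also divided between genes with frequent and with no promoter peaks. *EPHB2* had one in 8 lines and *EPHA1* in 7, whereas *EPHA3* and *EPHA8* had none. The canonical window of *EPHA1* had a peak over exon 1 in 5 lines (chr7:143104898-143106000), with score percentiles of 85.4 in IMR-32, 53.8 in CHP-902R, 80.3 in LAN-2, 82.5 in SK-N-AS and 31.9 in CLB-GA. *EPHA8*, without a promoter peak, had a region 15.1 kb into the gene (chr1:22903871-22906259, intron) with a peak in all 8 lines and score percentiles from 59.2 in CLB-GA to 99.9 in SH-SY5Y. *EPHA10* had an 8-line region at exon 3 (chr1:38226789-38227993) that ranged more widely, from 27.2 in LAN-2 to 99.9 in SH-SY5Y. *EPHA3* was nearly free of peaks, with 3 or 4 body peaks in CHP-902R, IMR-32 and SJNB-1 and 0 in the other lines.

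Of the 7 ephrins, *EFNA5*, *EFNB2* and *EFNB3* had no promoter peak in any line. *EFNA1* had one in 7 lines, in 3 of them in the canonical window. A region centered 2.15 kb upstream of its canonical TSS (chr1:155097189-155099205) had score percentiles from 2.32 in CHP-902R to 98.7 in SJNB-1 and no peak in CLB-GA. *EFNB2*, a ligand of EPHB receptors, has the most CpG-dense canonical window of the 66 genes, with 10.8 CpG per 100 bp and no peak. At the other end of the gene, exon 5 (chr13:107144686-107146203) had a peak in all 8 lines, with score percentiles of 90.5 in IMR-32, 27.8 in N206, 98.8 in CHP-902R, 96.1 in LAN-2, 96.4 in SK-N-AS, 98.8 in CLB-GA, 71.1 in SJNB-1 and 96 in SH-SY5Y. N206 was the lowest. The windows of *EFNA4*, *EPHB4* and *EFNB3* overlap those of *ADAM15*, *SLC12A9* and *WRAP53*, so a peak there cannot be assigned to one gene.

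The peaks of the 8 lines in the 66 genes were merged into 1861 regions where they overlapped. Of these, 76% lay in introns of the gene body and 11.8% on coding exons there. In all, 11 regions (0.591%) had a peak in 8 lines, compared with 0.676% for all genes, and 1020 (54.8%) had a peak in 1 line, compared with 54.2%. By these counts the sharing between lines was close to that of all genes. Between 48 (72.7%) and 56 genes (84.8%) had a peak in the gene body, depending on the line, against 54.4% to 59% of all genes. Summed over all bodies, the density of these peaks was lower than for all genes in each line, with 2.13 to 3.75 body peaks per 100 kb against 3.04 to 5.12. Such a sum gives long genes the most weight. The median percentage of a gene body inside peaks was instead higher in each line. It ranged from 1.35% (CLB-GA) to 3.7% (SH-SY5Y), against 1.01% (SJNB-1) to 1.98% (LAN-2) for all genes.

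Other genes of the pathway were counted in the same way. Among 18 further guidance cues and receptors, a promoter peak was found in at least 2 lines for 16 (88.9%, against 62.4% of all 19229 genes) and in all 8 for 2 (11.1%, against 6.4%), *NCAM1* and *FLRT2*, which are adhesion molecules. Among 39 genes of the signaling below the receptors, 32 (82.1%) had one in at least 2 lines and 6 (15.4%) in all 8, namely *SRGAP2*, *ROCK2*, *NGEF*, *CFL1*, *SRGAP1* and *PAK6*. The share of combinations with a canonical window peak was 13.9% and 16.7% in these lists, against 16.6% for all genes.

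Next, the *MYCN* groups were compared. The MNA lines had a promoter peak in 34.8 ± 3.1 axon guidance genes and the others in 32.2 ± 5.19 (SD, n = 4 each), a difference of 2.5 genes that is within the spread between lines. Over all genes, the mean share with a promoter peak was also higher in the MNA lines, at 39.7% ± 2.31 against 36.3% ± 2.31. When the same number of peaks was taken from each line, the difference for the axon guidance genes turned to -2.25 genes. The shares over all genes were then 30.2% to 36.3% in the MNA lines and 29.7% to 34.9% in the others. No axon guidance gene separated the groups, that is, had a promoter peak throughout one group and nowhere in the other. Over all genes, 0.203% had this pattern with the peak in the MNA lines and 0.104% with the peak in the single copy lines. Such a gene has p = 0.0286 in Fisher's exact test (two-sided), the smallest that 4 lines against 4 allow, and the Benjamini-Hochberg adjusted p over all genes was 1. Of the 66 genes 0 had an unadjusted p under 0.05 in this exact test.

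*EPHB6* and *SEMA6D* came nearest, with a promoter peak in 3 lines of one group and none of the other. Over all genes, 1.24% had a peak in 3 or more MNA lines and no single copy line, and 0.525% the opposite. *EPHB6*, an EPH receptor without kinase activity, had a region over exons 13 to 16 (chr7:142565569-142567073) with score percentiles of 46.6 in IMR-32, 88.2 in N206 and 45.7 in LAN-2. No peak was called there in CHP-902R or any single copy line, so *EPHB6* separates the groups when CHP-902R is left out. *SEMA6D* had promoter peaks in CLB-GA, SH-SY5Y and SK-N-AS at 3 different places, 47.1 kb and 48.3 kb downstream and 534 kb upstream of the canonical TSS, and separates the groups when SJNB-1 is left out. With all 8 lines both had p = 0.143 in the two-sided Fisher's exact test (adjusted p = 1).

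Body cover, the percentage of the gene body inside peaks, did not overlap between the groups for 2 genes, *EPHB1* and *SLIT3*, and was higher in the MNA lines for both. Over 18606 genes with a body, 2.09% were higher in every MNA line and 0.36% lower. *EPHB1*, a receptor for B-class ephrins, had a cover of 1.31% in IMR-32, 3.06% in N206, 1.47% in CHP-902R and 1.77% in LAN-2, compared with 0.183% in SK-N-AS, 0.598% in CLB-GA, 0.198% in SJNB-1 and 0.991% in SH-SY5Y. The means were 1.9% ± 0.794 and 0.493% ± 0.384 (SD, n = 4 each), and the lowest MNA line lay above the highest single copy line. In numbers of peaks, the *EPHB1* body had 10 to 32 in the MNA lines and 2 to 8 in the single copy lines.

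*SLIT3* had a cover of 3.27% in IMR-32, 3.24% in N206, 3.71% in CHP-902R and 5.15% in LAN-2, compared with 2.92% in SK-N-AS, 1.04% in CLB-GA, 0.953% in SJNB-1 and 2.71% in SH-SY5Y. The means were 3.84% ± 0.9 and 1.91% ± 1.06 (SD, n = 4 each), with a narrow gap between N206 and SK-N-AS. For both genes the two-sided exact permutation test gave p = 0.0286, the smallest possible, and an adjusted p of 1 over all genes, so neither passed the correction. The MNA lists are the longer ones, and mean body cover was higher in the MNA lines for 42 of the 66 genes (63.6%) and lower for 24. Of the 18606 genes with a body, it was higher for 10622 (57.1%), lower for 5603 and equal for the rest. Because only the latter percentage includes genes without a difference, the percentages are not directly comparable. With the same number of peaks from each line, *EPHB1* again did not overlap, whereas *SLIT3* did, and with a score of at least 100 both overlapped.

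**Figure D4:**
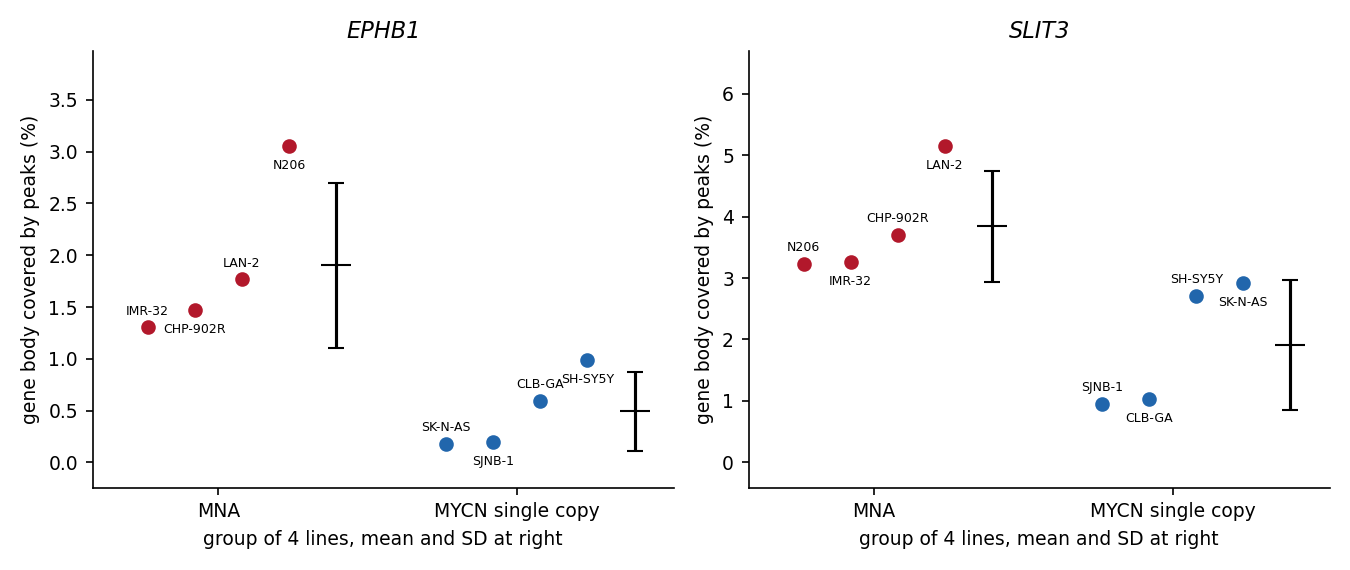
Percentage of the gene body of *EPHB1* and *SLIT3* covered by peaks in each cell line (points), with the mean and SD of each *MYCN* group of 4 lines. Every MNA line lies above every single copy line, with N206 highest for *EPHB1* and LAN-2 for *SLIT3*.

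Of the 53 merged regions in *EPHB1*, 36 had a peak in 1 line, 41 had peaks in MNA lines only and 1 in single copy lines only. Of the 141 regions in *SLIT3*, 65 had a peak in 1 line, 71 had peaks in MNA lines only and 22 in single copy lines only. Both genes were picked for their higher body cover in the MNA lines, so these counts restate that choice and add no support to it. No share of such regions over all genes is given here. Among the regions of the 66 genes, 4 had a peak in all 4 MNA lines and in no single copy line, and 0 had the opposite pattern, compared with 0.129% and 0.0419% of the 212533 regions of all genes. They lay in an intron of *SEMA3C* (chr7:80428977-80429724, near another TSS), in an intron of *SLIT2* (chr4:20529625-20530133) and in introns of *SLIT3* 197 kb and 526 kb downstream of the canonical TSS (chr5:168530578-168531382 and chr5:168201931-168202676). Their score percentiles were moderate, from 26.2 to 77.6. Of the 45 bp windows of these regions, 72% occur once in GRCh37 in *SEMA3C* and 80.6% in the farther *SLIT3* region, against 100% in *SLIT2* and the nearer *SLIT3* region.

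**Figure D5:**
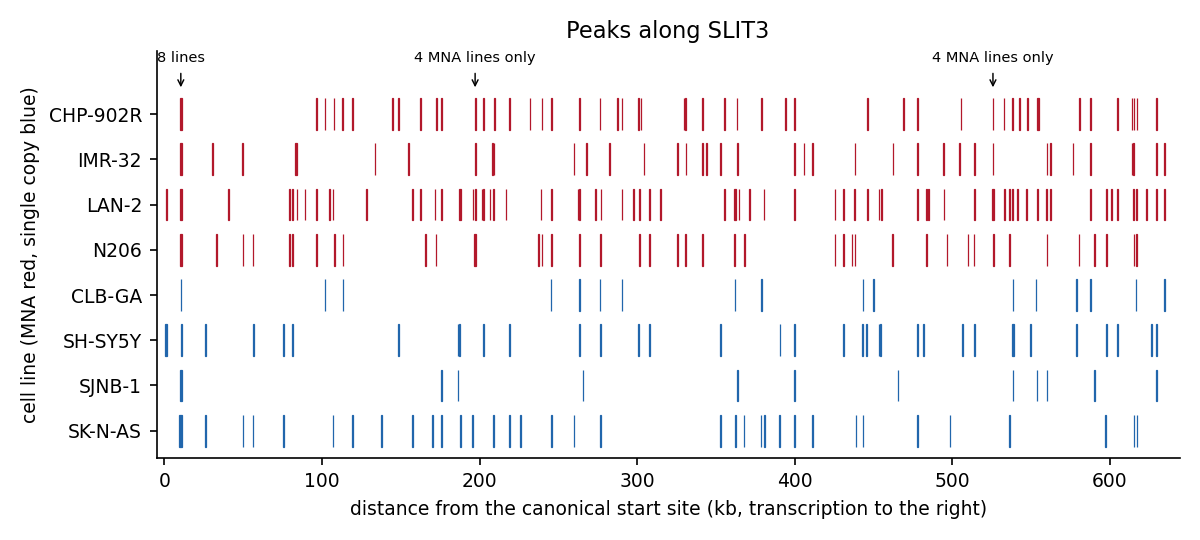
Peaks along *SLIT3* in each cell line by distance (kb) from the canonical start site, with MNA lines in red and *MYCN* single copy lines in blue. Arrows mark the region 10.4 kb downstream with a peak in all 8 lines and the 2 intronic regions, at 197 kb and 526 kb, with a peak in the 4 MNA lines only.

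In the other pathway lists, 0 genes separated the groups by promoter peak or had one in 3 lines of a group and none of the other. Body cover was higher in every MNA line for 3 of the 39 genes of the signaling list (7.69%, against 2.09% of all genes), *RHOA*, *DPYSL2* and *ROCK1*, and for 0 of the 18 further cues and receptors. The means were 3.63% and 0.692% for *RHOA*, the small GTPase upstream of *ROCK1*, 2.38% and 0.966% for *ROCK1*, and 2.67% and 1.76% for *DPYSL2*, which mediates growth cone collapse by semaphorins. Each had p = 0.0286 in the exact permutation test before correction and 1 after it.

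Several of the genes lie on chromosome arms that are often lost in NB. *EPHA2*, *EPHA8*, *EPHA10* and *EPHB2* lie on 1p, with promoter peaks in 2, 0, 5 and 8 lines. *SEMA3B*, *SEMA3F*, *SEMA3G*, *PLXNB1*, *ROBO1*, *ROBO2* and *EPHA3* lie on 3p, with peaks in 5, 6, 0, 8, 2, 2 and 0 lines, and *ROBO3* and *ROBO4* on 11q, with peaks in 6 and 4. None of the 66 genes lies on 17q, the arm often gained. Copy number was not measured here, and its part in these peaks was not tested.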

How the data were processed

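MBD-seq was done by the authors on 8 NB cell lines, 1 sample each. They mapped paired-end reads of 45 bp on GRCh37 with Bowtie 0.12.7 and called peaks with MACS separately in each line. The deposited lists give each peak's position and score, at least 50 in every list, equal to a p-value of 1e-05. Scores rise with depth and were used to rank within a list and, in an alternative, to filter. Peak calling options and an input control are not given in the sources used here. Peaks were intersected (at least 1 bp) with the genes and TSS of GENCODE (release 44, lifted to GRCh37), and regions were formed from overlapping peaks of the 8 lines. Python 3.11.15 with scipy 1.17.1 and numpy 2.4.6 was used. Sequences come from GRCh37. Groups were compared over the lines by two-sided Fisher's exact tests of promoter peaks and two-sided exact permutation tests of mean body cover, Benjamini-Hochberg adjusted over all genes. The tests were checked on simulated data.

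The genes and lists were chosen with earlier results of these data known. Genes named have a promoter peak in at least 7 lines or in none, at least 3 lines of one *MYCN* group against none, body cover that does not overlap between the groups or one of the 5 highest mean score percentiles among genes with a promoter peak in at least 3 lines, or are *PLXNC1*, *DCC* or *UNC5A* to *UNC5D*, or lie on 1p, 3p or 11q. The merged regions, the profile around the TSS, the TSS and CpG strata, the genes named with them and the other genes named within a family were chosen after their values were seen. Alternatives were a score of at least 100, the top 70816 peaks of each line, peak midpoints, 1 TSS per gene, windows to 500 bp downstream, and each line left out in turn. Reads, wiggle tracks and expression data were not analysed here.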

Additional observations from a re-analysis of the deposited data

How the results depend on the processing

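With only peaks of a score of at least 100, 14 genes shared a promoter peak between at least 2 lines and 0 between all 8, 1 gene (*SEMA5B*) separated the groups and 0 had body cover that did not overlap. With equal list lengths, 7 genes had a promoter peak throughout the 8 lines, the group difference turned to -2.25 genes, and the 2 genes with body cover that did not overlap were *EPHB1* and *SEMA5A* in place of *SLIT3*. With 1 TSS per gene, 15 genes shared a promoter peak between at least 2 lines and 0 between all 8. With windows to 500 bp, 4 genes (*NRP2*, *SLIT3*, *NTN3* and *EPHB1*) had body cover that did not overlap. For these settings, shares over all genes are given only for promoter peaks with a score of at least 100 or at the canonical TSS. With equal list lengths they are given only as ranges over the lines. Counts of genes that separated the groups or did not overlap, also with a line left out, have no such share beside them.

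Leaving out each line in turn gave 47 to 50 genes with a promoter peak in at least 2 lines, 11 to 13 in all remaining lines, 0 to 1 separating the groups (*EPHB6* without CHP-902R, *SEMA6D* without SJNB-1), 2 to 5 with body cover that did not overlap, and a group difference of 0.417 to 4.08 genes. The number without overlap reached 4 or 5 without CHP-902R, N206, CLB-GA, SH-SY5Y or SK-N-AS. Leaving out a line cannot undo a separation or a gap in body cover, so *EPHB1* and *SLIT3* had to remain among these genes. Likewise, the counts for all remaining lines, for separation and for body cover could only stay or rise. The count for at least 2 lines could only stay or fall. Of the 65 values recomputed, 49 stayed within 1.5 times the count or 1 SD of the lines. The cause of the other 16 changes was not tested. No paired analysis was possible because the lines of the groups are unrelated and their replicate numbers come from accession order only. Without read counts, the lists cannot show whether a missing peak reflects low depth.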
